A study of Rattus norvegicus with 6 samples.

Results

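The insulin-like growth factor (IGF) genes described here are the ligand genes Igf1 and Igf2, the receptor genes Igf1r and Igf2r, and the binding protein genes Igfbp2 to Igfbp7. They were chosen by gene symbol and account for 10 of the 32623 genes listed. RNA was sequenced from nucleus pulposus cells, which fill the soft centre of the disc between vertebrae. They came from the lumbar spine of 4-week-old male rats (Sprague-Dawley) and were used at passages 3 to 5. In 3 libraries, called shBmal1, a lentiviral short hairpin targeted Bmal1, and in the other 3, called shNC, the lentivirus was a negative control. Exposure lasted 72 hours, and cells of both groups received virus. No untreated cells and no other genotype were analysed here. Nothing in the labels ties libraries to separate cultures or animals. The p-values therefore reflect the spread among these 6 samples, and that spread may be technical. The comparison asks how transcript levels differ when Bmal1, a core transcription factor of the circadian clock, is knocked down.

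IGF-I and IGF-II are small secreted peptides that signal through the IGF-I receptor tyrosine kinase, and in disc and cartilage they are known to stimulate proteoglycan synthesis. The IGF-II receptor, which is also the cation-independent mannose 6-phosphate receptor, does not signal in the same way but takes up and degrades IGF-II and sorts lysosomal enzymes. Binding proteins hold IGFs in the matrix or in fluid and limit or prolong their access to the receptor, and proteases release them. IGFBP7 binds IGFs with low affinity and is counted as a relative of the others.

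BMAL1, paired with CLOCK, binds the E-box hexamer CACGTG, and promoter windows were therefore searched for it. The windows, from RefSeq on the GRCr8 assembly, run from 250 bases before to 50 bases after a gene's start, and all 10 members matched by symbol, Igf2 with a pair of starts. CACGTG, which reads the same on both strands, was present in the windows of 3 members. These were Igf2r with 2 copies, 125 and 85 bases before the start, Igf1r with 1 copy 31 bases before it, and Igfbp2 with 1 copy 140 bases before it. The 3 windows, on the forward strand and with each CACGTG in capitals, are followed by that of Igfbp4, the member with the largest fall, which holds none.
Igf2r, chr1:50526628-50526927: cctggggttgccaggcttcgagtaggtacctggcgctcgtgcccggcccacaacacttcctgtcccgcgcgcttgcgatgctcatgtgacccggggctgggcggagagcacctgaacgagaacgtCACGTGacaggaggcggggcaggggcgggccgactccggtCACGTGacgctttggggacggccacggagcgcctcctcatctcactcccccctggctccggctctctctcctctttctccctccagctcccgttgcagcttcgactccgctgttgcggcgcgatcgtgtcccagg
Igf1r, chr1:130959747-130960046: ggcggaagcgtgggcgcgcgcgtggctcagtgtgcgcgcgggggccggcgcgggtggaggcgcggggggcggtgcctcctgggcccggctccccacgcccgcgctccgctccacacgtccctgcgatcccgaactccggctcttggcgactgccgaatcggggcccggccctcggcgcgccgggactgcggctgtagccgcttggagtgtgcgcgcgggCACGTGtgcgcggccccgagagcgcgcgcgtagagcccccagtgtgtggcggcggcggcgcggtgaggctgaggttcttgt
Igfbp2, chr9:81864561-81864860: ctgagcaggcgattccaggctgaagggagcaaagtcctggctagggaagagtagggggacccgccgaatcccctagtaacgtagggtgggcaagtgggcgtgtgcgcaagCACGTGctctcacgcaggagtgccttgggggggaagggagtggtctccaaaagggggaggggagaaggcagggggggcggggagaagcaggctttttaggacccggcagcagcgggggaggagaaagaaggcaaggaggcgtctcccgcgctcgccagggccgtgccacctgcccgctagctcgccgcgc
Igfbp4, chr10:84491221-84491520: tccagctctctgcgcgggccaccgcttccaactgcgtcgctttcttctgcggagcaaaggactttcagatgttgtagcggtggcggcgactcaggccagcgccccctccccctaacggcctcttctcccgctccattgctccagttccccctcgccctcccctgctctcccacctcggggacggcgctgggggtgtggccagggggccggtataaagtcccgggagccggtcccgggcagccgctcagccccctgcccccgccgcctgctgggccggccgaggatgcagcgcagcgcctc

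Of all 33469 promoter windows, 6.42% held CACGTG and 0.52% held at least 2 copies. Among tested genes matched to a window, 337 of 3834 genes lower in shBmal1 held it (8.79%), as did 401 of 3388 that were higher (11.8%) and 228 of 2678 that did not pass the test (8.51%). The variant E-box CACGTT and the D-box sequence TTATGNAA, sought on both strands, were in none of the members' windows (4.83% and 3.66% of all windows). The half-site AGGTCA, recognised by ROR and REV-ERB receptors, was in the windows of Igf1 and Igfbp6 (16.2% of all windows). No match overlapped a match of another motif, and a match describes letters in these windows only.

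The total count per library ranged from 44043803 to 49783710 for shNC and from 8773762 to 11679587 for shBmal1, a 4.44-fold difference in means. Mitochondrial rRNA made up 0.0330 to 0.0602% of shNC counts and 0.722 to 1.31% of shBmal1 counts. Bmal1, listed as Arntl, was lower in all 3 shBmal1 libraries, at 2.82 ± 1.23 against 29.6 ± 2.14 CPM (TMM-scaled counts relative to library size; SD, n = 3 per group), or 9.55% of the control level. The exact two-sided permutation test gave 0.1, the smallest p that 3 against 3 libraries allow. Of the nucleus pulposus markers, Acan, Mgp and Pax1 were abundant in shNC, while Tbxt, a notochord marker, had no count in any library. The others were lower in shNC, with means of 79.8 CPM for Krt8, 49.5 for Foxf1 and 35.4 for Col2a1. Cd24 stood at 10.9, Sox9 at 10.2, Ca3 at 3.02, Krt18 at 1.67 and Krt19 at 0.877 CPM. Ca12 had 8 counts in shNC replicate 1 and none elsewhere. The summed level of the nucleus pulposus and notochord list (12 of 13 found genes with counts) was 2852 to 3073 CPM in shNC and 441 to 462 in shBmal1. Mgp, Acan and Pax1 carry most of that sum, and of the 11 tested genes of the list 5 were lower, 2 (Foxf1 and Ca3) were higher and 4 (Sox9, Cd24, Krt18 and Krt19) did not pass. Over all 14342 tested genes 71.3% were called at an adjusted p under 0.05 in edgeR, 36.0% higher and 35.3% lower. Whether any marker list differs from these shares was not tested. Smooth muscle and pericyte markers (all 6 found with counts) summed to 4085 to 4408 against 743 to 858 CPM, almost all of it Tagln and Acta2. In this list 4 genes were lower and 2 (Des and Myh11) higher. Of those lower, Cnn1 and Rgs5 passed the count filter through shNC alone, so their direction is largely given by the filter. Annulus, tendon and fibroblast markers (7 of 8; Tnmd at 0) summed to 3913 to 4227 against 171 to 245 CPM, mostly Col12a1, with 5 genes lower and none higher. Osteoblast markers (6 of 6) summed to 31.7 to 35.1 against 15.9 to 18.4 CPM, with Runx2 and Alpl lower and Ibsp higher. Alpl likewise passed the filter through shNC alone. Macrophage markers (6 of 6) summed to 0.574 to 0.974 against 3.56 to 5.60 CPM. Endothelial markers (5 of 5) summed to 0.0850 to 0.494 against 3.43 to 4.85 CPM. Adipocyte markers (4 of 6, with Fabp4 and Plin1 at 0) summed to 3.35 to 4.19 against 11.2 to 14.5 CPM. From these lists only Cd68 (macrophage), Vwf and Tie1 (endothelial) and Adipoq and Pparg (adipocyte) had enough counts to be tested. All were called higher, but all except Pparg passed the filter through shBmal1 alone. The direction of Cd68, Vwf, Tie1 and Adipoq is thus largely given by the filter. Depth, rRNA share and marker sums all moved with the group, and their part in the results on IGF genes was not tested.

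Most of the IGF genes with a measurable transcript differed between the groups, in both directions. Of the 9 members with enough counts to be tested, 5 fell (Igf1r, Igf2r, Igfbp2, Igfbp4 and Igfbp5), 2 rose (Igfbp3 and Igfbp6) and 2 did not pass the test (Igf2 and Igfbp7), at a Benjamini-Hochberg adjusted p under 0.05 in edgeR's quasi-likelihood test. Over all 14342 tested genes 71.3% were called, 36.0% higher and 35.3% lower, so 7 calls among 9 members is close to the share of the whole table. The members' median log2 fold change was −0.37, against −0.01 over all tested genes. Scaled CPM did not overlap between the groups for 7 of the 9, where 77.3% of all tested genes did not overlap. With counts scaled to library totals alone 3 members were higher and 4 lower, because Igfbp7 passed and Igf1r did not, whereas with FPKM rescaled to TPM 2 were higher and 5 lower. Fewer cells of a type and less RNA per cell cannot be told apart in these bulk samples.

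**Figure D1:**
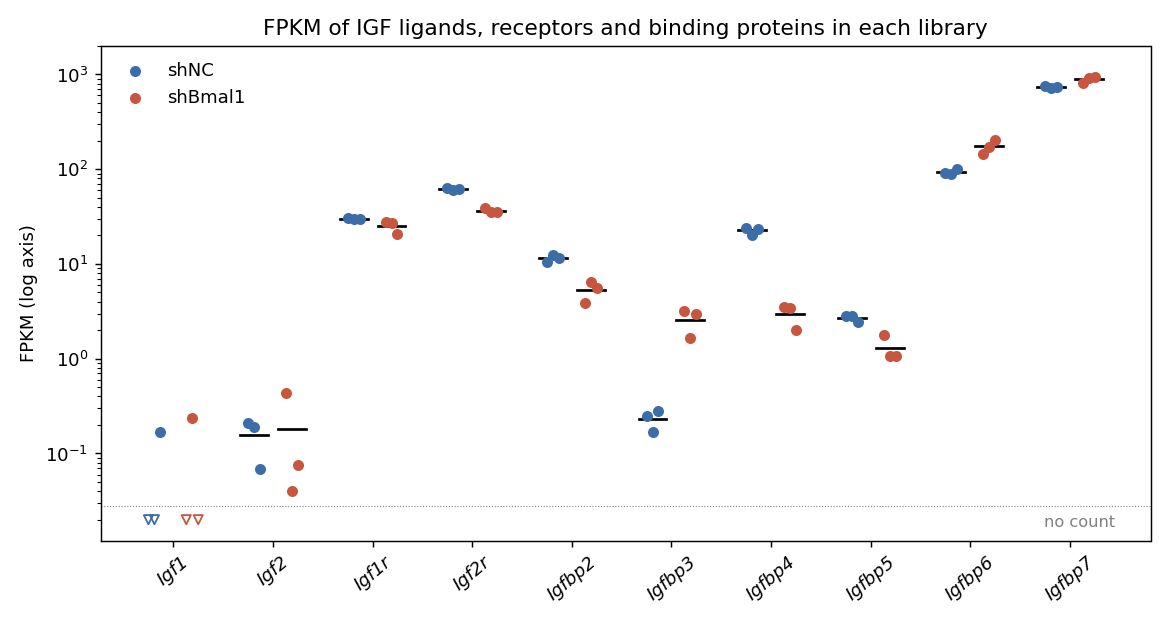
FPKM of each member in each library on a log axis, with shNC in blue and shBmal1 in red, black bars for group means where all 3 libraries had counts, and open triangles for libraries with no count. Igfbp7 lies near the top of the scale at 723 to 950 FPKM and the ligand genes lie below 0.5 FPKM, while Igfbp3 and Igfbp4 show the widest gaps between the groups.

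The ligand genes were at or near the limit of detection. Igf1 (ENSRNOG00000004517, chromosome 7, 28412198 to 28486609, forward strand; the sources used here do not give the build of the deposited coordinates) had 0, 0 and 15 counts in shNC and 0, 6 and 0 counts in shBmal1. Each group thus had counts in a single library, and 3 counts correspond to 0.0637 to 0.0712 CPM per shNC library and 0.245 to 0.323 CPM per shBmal1 library, which covers counting error only. Igf1 did not pass the count filter and was therefore not tested. Igf2 (ENSRNOG00000020369, chromosome 1, 215828102 to 215846911, reverse strand), a paternally expressed imprinted gene, had 59, 55 and 18 counts in shNC and 24, 3 and 6 in shBmal1. In FPKM, the authors' value scaled to gene length and library size, that was 0.211, 0.189 and 0.0688 against 0.432, 0.0398 and 0.0763. The groups overlapped, with shBmal1 replicate 1 the highest and shBmal1 replicate 2 the lowest of all libraries. The log2 fold change of Igf2 was 0.15 ± 0.88 (SE, adjusted p = 0.89, edgeR). Its 95% interval from −1.89 to 2.19 means that a difference of several-fold in either direction would go undetected in these libraries. Without shBmal1 replicate 1 the log2 fold change was −1.42 (adjusted p = 0.149, edgeR), and without shNC replicate 3 −0.19.

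Both receptor genes were lower in shBmal1, Igf2r by more than Igf1r. Igf2r (ENSRNOG00000014997, chromosome 1, 48176106 to 48264477, forward strand), a maternally expressed imprinted gene in rodents whose window carries the pair of E-boxes shown above, had 62.9, 61.0 and 61.1 FPKM in shNC and 39.4, 35.0 and 35.0 FPKM in shBmal1. The groups lay well apart and each was narrow. Its scaled counts fell from 589 ± 16.3 to 322 ± 24.4 CPM, a log2 fold change of −0.87 ± 0.07 (adjusted p = 1.21e-05, edgeR).

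Igf1r (ENSRNOG00000014187, chromosome 1, 128924966 to 129206516, forward strand) had 30.3, 29.9 and 29.8 FPKM in shNC and 27.6, 26.9 and 20.5 FPKM in shBmal1. The groups did not overlap, but 2 of the shBmal1 libraries lay only slightly below the control libraries and replicate 3 was the lowest. It fell from 134 ± 2.49 to 103 ± 17.0 CPM, a log2 fold change of −0.37 ± 0.12 (adjusted p = 0.0194, edgeR). This call was lost without shNC replicate 1 (adjusted p = 0.0514, edgeR), with library totals alone (−0.21; 0.128) and in limma on log2(FPKM + 1) (−0.26; 0.0750) and log2(FPKM + 0.1) (−0.27; 0.0776).

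Within a library, where scaling between libraries plays no part, the log2 ratio of Igf1r to Igf2r FPKM was −1.04 ± 0.01 in shNC and −0.55 ± 0.20 in shBmal1 (SD, n = 3). The difference of 0.49 was above the spread in both groups, and the exact two-sided permutation p was 0.1, the smallest possible. This difference follows from the receptor changes given above, so the ratio is a description and no separate support. Insr, the gene of the insulin receptor, a close relative of the IGF-I receptor, stood at 30.7 ± 0.99 CPM in shNC and 26.9 ± 3.85 CPM in shBmal1 (log2 fold change −0.19 ± 0.12; adjusted p = 0.188, edgeR).

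The binding protein genes spanned a wide range of levels per length, from 0.232 to 742 FPKM in shNC and from 1.31 to 891 FPKM in shBmal1 (group means), and moved in different directions. Igfbp7 (ENSRNOG00000002050, chromosome 14, 33010300 to 33070190, forward strand), whose product is secreted into the matrix, was by far the most abundant, at 763, 723 and 739 FPKM in shNC and 814, 909 and 950 FPKM in shBmal1. By mean FPKM it ranked 57 of 32623 genes in shNC and 100 in shBmal1. All 3 shBmal1 libraries lay above the shNC libraries in FPKM, but in scaled counts (888 ± 31.4 against 987 ± 70.8 CPM) shBmal1 replicate 1 fell among the controls. Its log2 fold change of 0.15 ± 0.07 did not pass (adjusted p = 0.0752, edgeR; 95% interval −0.0048 to 0.31). Igfbp7 passed in DESeq2 (0.21; adjusted p = 0.00303), with library totals alone (0.31; 0.00332, edgeR) and without shBmal1 replicate 1 (0.18; 0.0154, edgeR). It also passed in limma on log2(FPKM + 1) (0.26; 0.0197) and log2(FPKM + 0.1) (0.26; 0.0218). With TPM it turned to −0.22 (0.0727, limma), a scaling that moved the median of all genes to −0.35. The gene overlaps Polr2b and an Rpl39 entry on the opposite strand, whose log2 fold changes were 0.55 and 2.64 (both higher at adjusted p = 0.00310 and 0.000813, edgeR), and the sources used here do not say whether strand was used in counting.

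Igfbp6 (ENSRNOG00000010977, chromosome 7, 143749221 to 143754054, forward strand), which encodes the binding protein that prefers IGF-II, was the second most abundant member per length (FPKM) in both groups and rose. It had 92.1, 90.1 and 101 FPKM in shNC and 145, 173 and 204 FPKM in shBmal1, so that every shBmal1 library exceeded every control library. Scaled counts rose from 110 ± 5.95 to 187 ± 30.5 CPM (log2 fold change 0.77 ± 0.12; adjusted p = 0.000512, edgeR). With TPM the value was 0.39 (adjusted p = 0.0377, limma).

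Igfbp3 (ENSRNOG00000061910, chromosome 14, 87457647 to 87465374, reverse strand), which encodes the main IGF carrier of blood and a known growth-inhibitory protein, showed the largest rise. It started from a very low level, with 30, 21 and 31 counts in shNC, or 0.250, 0.168 and 0.279 FPKM. In the shallower shBmal1 libraries it had 72, 50 and 85 counts, or 3.16, 1.66 and 2.94 FPKM. The groups were far apart, and raw counts themselves were higher in shBmal1 although those libraries held fewer reads in all. The rise from 0.619 ± 0.153 to 6.29 ± 1.95 CPM was a log2 fold change of 3.34 ± 0.41 (adjusted p = 0.000152, edgeR), or 10.1-fold. On scales with an added pseudocount of 1 the change was smaller by construction, at 1.77 in TPM and 1.51 in FPKM, and remained called. Igfbp1, which lies 3861 bases from Igfbp3 in the deposited coordinates, had no count in any library.

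Igfbp4 (ENSRNOG00000010635, chromosome 10, 86950557 to 86962578, forward strand), which encodes an inhibitory IGF binding protein cleaved by pappalysin, showed the largest fall. It had 24.2, 20.3 and 23.4 FPKM in shNC and 3.50, 3.46 and 2.02 FPKM in shBmal1. Per length it was the third most abundant binding protein gene in shNC, whereas in shBmal1 it lay below Igfbp2 and overlapped Igfbp3. Scaled counts were 53.6 ± 4.99 CPM in shNC and 6.61 ± 1.92 CPM in shBmal1, 8.15-fold lower by the fitted log2 fold change of −3.03 ± 0.21 (adjusted p = 5.49e-06, edgeR). Its start lies 259741 bases beyond the end of Nr1d1, a clock gene on the same chromosome.

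Igfbp2 and Igfbp5 are neighbours on chromosome 9, separated by 5421 bases and transcribed towards each other, and they fell by similar amounts. Igfbp2 (ENSRNOG00000016957, 80118029 to 80144789, forward strand), whose product also binds integrins, had 10.5, 12.5 and 11.4 FPKM in shNC and 3.91, 6.40 and 5.58 FPKM in shBmal1. Igfbp5 (ENSRNOG00000017206, 80150211 to 80167033, reverse strand), which encodes a matrix-bound binding protein known from bone and cartilage, had 2.83, 2.85 and 2.45 FPKM in shNC and 1.78, 1.08 and 1.07 FPKM in shBmal1. For both genes every shBmal1 library was below every control library. The log2 fold change of Igfbp2 was −1.21 ± 0.20 (adjusted p = 0.000884, edgeR), from 16.0 ± 1.3 to 6.87 ± 1.59 CPM. That of Igfbp5 was −1.16 ± 0.22 (adjusted p = 0.00191, edgeR), from 17.3 ± 1.58 to 7.79 ± 2.40 CPM. The log2 ratio of Igfbp5 to Igfbp2 FPKM was −2.08 ± 0.17 in shNC and −2.03 ± 0.78 in shBmal1, a difference of 0.05 within the spread (exact permutation p = 1).

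**Figure D2:**
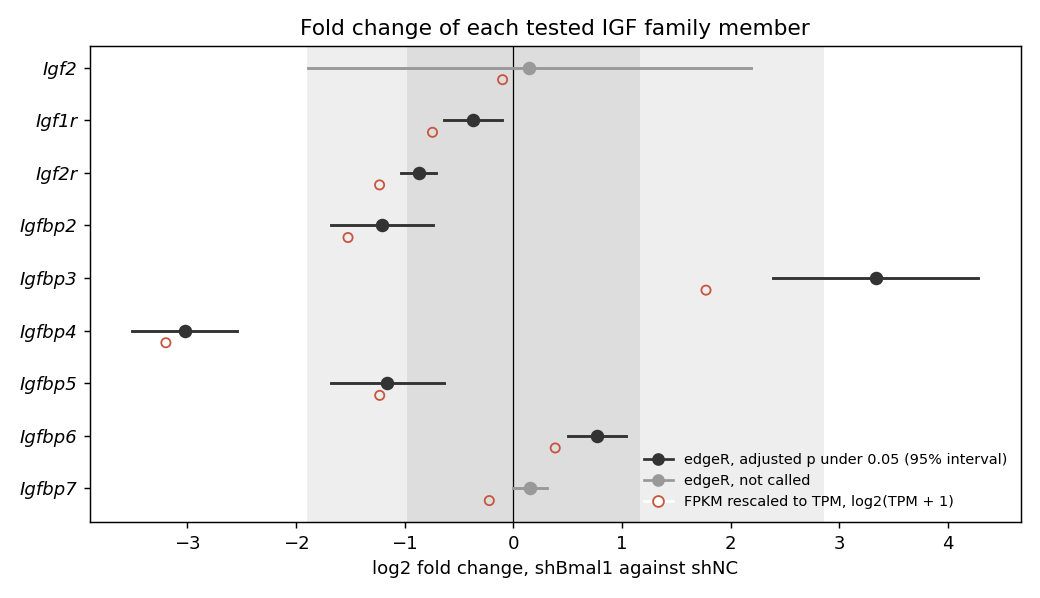
Log2 fold change of each tested member with its 95% interval from edgeR (dark where called, grey where not) and the value with FPKM rescaled to TPM (open red circles). Grey bands span the middle 50% and 80% of all tested genes. Igfbp3 at 3.34 and Igfbp4 at −3.03 lie outside the wider band, and the other members lie within it.

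The binding protein transcripts were also summed into a pool. Summed over Igfbp2 to Igfbp7, the shNC libraries held 893, 849 and 878 FPKM and the shBmal1 libraries 971, 1094 and 1166 FPKM. Every shBmal1 sum was above every control sum, and the gap was made up mostly of Igfbp7 and Igfbp6. Unlike the shares below, these sums depend on the scaling between libraries. With TPM the log2 fold change was −0.22 for Igfbp7 and 0.39 for Igfbp6, so the higher sums hold for FPKM only. Igfbp7 took 84.9 ± 0.65% of the pool in shNC and 82.8 ± 1.19% in shBmal1 (SD, n = 3). The share of Igfbp6 was 10.8 ± 0.62% and 16.1 ± 1.33%, that of Igfbp4 2.59 ± 0.17% and 0.284 ± 0.098%, and that of Igfbp2 1.32 ± 0.15% and 0.489 ± 0.091%. Igfbp5 went from 0.311 ± 0.029% to 0.124 ± 0.051% of the pool and Igfbp3 from 0.0265 ± 0.0061% to 0.243 ± 0.087%. In shNC the order was thus Igfbp7, Igfbp6, Igfbp4, Igfbp2, Igfbp5 and Igfbp3, and the shares of neighbours in that order did not overlap over the 3 libraries. In shBmal1 the order was Igfbp7, Igfbp6, Igfbp2, Igfbp4, Igfbp3 and Igfbp5, and the last 3 overlapped in their shares. These orders hold per length. As a share of raw counts Igfbp5 stood above Igfbp2, at 1.6% against 1.48% in shNC and 0.662% against 0.569% in shBmal1, and the Igfbp7 share was 81.8% in shNC and 82.2% in shBmal1.

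**Figure D3:**
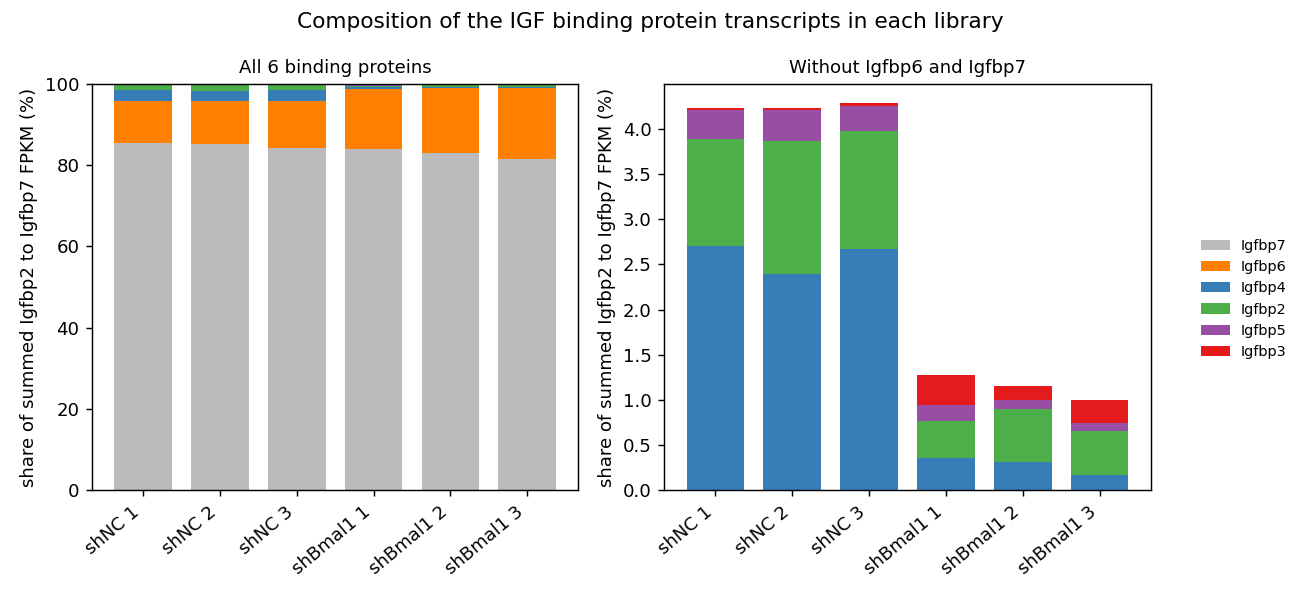
Share of the summed FPKM of Igfbp2 to Igfbp7 taken by each gene in each library, for all 6 genes on the left and without Igfbp6 and Igfbp7 on the right, on an enlarged axis. The Igfbp4 share is 2.40 to 2.71% in shNC and only 0.174 to 0.361% in shBmal1, whereas that of Igfbp3 is 0.0198 to 0.0317% for shNC against 0.152 to 0.325% for shBmal1.

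Pairs of binding proteins that had moved in opposite directions were also set against each other within a library, where scaling plays no part. The log2 ratio of Igfbp3 to Igfbp5 FPKM was −3.57 ± 0.48 in shNC and 0.97 ± 0.43 in shBmal1, and that of Igfbp4 to Igfbp6 was −2.06 ± 0.12 and −5.89 ± 0.68. For both pairs the groups did not overlap, and the exact two-sided permutation p was 0.1, the smallest that the design allows. Each pair sets a member that rose against a member that fell, so this separation follows from the changes given above. The ratios are a description and no separate support. Igfbp3 was below Igfbp5 in each control library and above it in each shBmal1 library.

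Genes whose scaled counts followed the same course were sought for the largest rise and the largest fall. Over the 6 libraries, the log2 CPM of Mrps30, Gbp2 and Cdca4 were the most alike to Igfbp3 among 11326 protein-coding genes, each with a Pearson r of 0.998. For Igfbp4 they were Adamts15, Nsmce4a and Cbx6, with r of 0.9998, 0.9997 and 0.9996. The libraries form 2 groups, so these values largely carry the difference between the groups, and 64 and 565 genes respectively exceeded an r of 0.99.

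Around the family, 51 other genes of the IGF axis were listed by role, of which 47 were found by symbol and 40 were tested. Of these, 11 rose, 18 fell and 11 did not pass, with a median log2 fold change of −0.24, so the share called is again close to the 71.3% of all genes. With TPM 6 rose and 27 fell (all genes: 4065 higher and 6681 lower, against 5167 and 5066 with TMM), and with library totals alone 12 rose and 15 fell. The plot of other genes of the IGF axis shows them by role.

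Among other ligands, receptors and carriers, Ins1, Ins2, Insrr, Igfals, Igfbpl1 and Igfbp1 had no count. Of 6 tested genes 3 fell and none rose, where 35.3% of all tested genes were lower and 36.0% higher. Lrp1, the gene of an endocytic receptor that also binds IGFBP3, fell from 5540 ± 193 to 2127 ± 124 CPM (log2 fold change −1.38 ± 0.06). Kazald1, which encodes an IGFBP-related protein, went from 20.3 ± 1.21 to 1.97 ± 1.02 CPM (−3.39 ± 0.35), and Furin, which encodes a convertase that cleaves the precursors of IGFs and of the IGF-I receptor, from 195 ± 7.72 to 92.4 ± 20.2 CPM (−1.08 ± 0.14). The largest adjusted p of these was 0.000224 (edgeR).

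Of 8 tested genes for IGFBP proteases and their inhibitors, 5 rose, 2 fell and 1 did not pass. Over all tested genes 71.3% were called, 36.0% higher and 35.3% lower, and the difference from these shares was not tested. Htra1, which encodes a secreted serine protease that cleaves IGFBP5, was the most abundant in counts and rose from 855 ± 23.6 to 1730 ± 203 CPM (log2 fold change 1.02 ± 0.09). Stc2, which encodes stanniocalcin-2, an inhibitor of pappalysins, rose from 26.7 ± 0.60 to 70.6 ± 10.5 CPM (1.40 ± 0.11), and Plau, the urokinase gene, from 7.38 ± 0.16 to 22.0 ± 2.54 CPM (1.57 ± 0.14). Pappa2, which encodes a pappalysin that cleaves IGFBP3 and IGFBP5, rose by 1.55 ± 0.49 (adjusted p = 0.0218, edgeR) but was not called when shNC replicate 2, shNC replicate 3 or shBmal1 replicate 2 was left out (0.0714, 0.0701 and 0.0901), with a replicate block (0.0624) and with TPM (0.103, limma). Ctsd, the cathepsin D gene, rose by 0.21 ± 0.05 (adjusted p = 0.00849, edgeR), lost its call without shBmal1 replicate 2 (0.0599) and turned to −0.16 with TPM. Plat, the tissue plasminogen activator gene, fell by 0.79 on the log2 scale and Adam12 by 0.20, the latter not called with library totals alone (adjusted p = 0.574, edgeR).

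Among 7 tested regulators of Igf2 RNA and of its locus, 3 rose, 2 fell and Plag1 and Igf2bp3 did not pass, which is about the share called over all genes (71.3%). Igf2bp2, which encodes a protein that binds IGF2 mRNA, rose from 10.9 ± 2.35 to 44.9 ± 1.08 CPM (log2 fold change 2.04 ± 0.16; adjusted p = 1.09e-05, edgeR). Hmga2, which encodes a chromatin protein known in mouse to promote Igf2bp2 transcription, rose from 1.51 ± 0.14 to 20.0 ± 0.65 CPM (3.72 ± 0.18; 8.02e-07). Igf2bp1 had 29, 0 and 19 counts in shNC and 77, 89 and 95 in shBmal1 (4.40 ± 0.90; 0.00268), and only the shBmal1 libraries carried it past the count filter, so its direction is largely given by the filter. Ctcf, which encodes the insulator protein of the imprinted Igf2 locus, fell from 54.2 ± 1.33 to 29.5 ± 5.05 CPM (−0.88 ± 0.12; 0.000353). Plagl1, an imprinted zinc-finger gene, fell by 1.18 on the log2 scale (adjusted p = 0.0220, edgeR), a call lost without shNC replicate 2 (0.0738) or shBmal1 replicate 2 (0.0629).

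**Figure D4:**
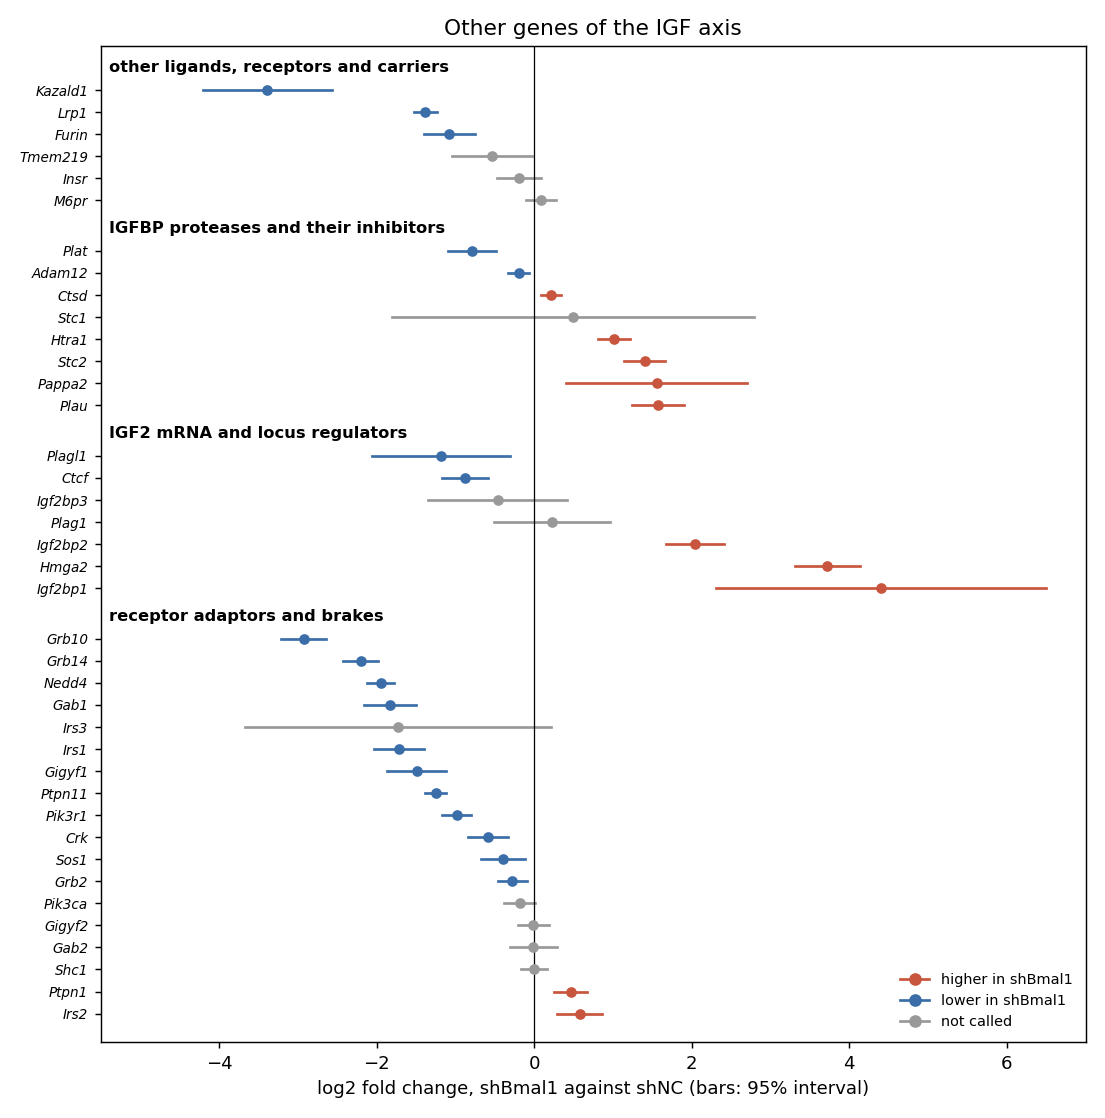
Log2 fold change of all but 1 of the 40 tested other genes of the IGF axis with their 95% intervals, grouped by role and coloured by call. Among receptor adaptors and brakes Grb10 (−2.93), Grb14 (−2.20) and Nedd4 (−1.95) lie farthest to the left, and among regulators of Igf2 RNA and its locus Igf2bp1 (4.40) and Hmga2 (3.72) lie farthest to the right.

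Downstream of the receptors, 11 of 19 tested genes for adaptors and brakes fell, 3 rose and 5 did not pass. Over all tested genes 71.3% were called, 36.0% higher and 35.3% lower, and the difference from these shares was not tested. The 3 with the smallest p among those that fell were Grb10, Grb14 and Nedd4. Grb10, which encodes an adaptor that inhibits IGF-I and insulin receptor signalling, fell from 456 ± 65.1 to 59.9 ± 5.20 CPM (log2 fold change −2.93 ± 0.12; adjusted p = 4.42e-07, edgeR). Its relative Grb14 fell from 342 ± 9.07 to 74.4 ± 9.29 CPM (−2.20 ± 0.10; 5.07e-07). Nedd4, which encodes a ubiquitin ligase that acts on the IGF-I receptor with GRB10, fell from 1322 ± 40.4 to 343 ± 27.8 CPM (−1.95 ± 0.07; 2.63e-07). The adaptor gene Irs1 fell from 23.9 ± 1.26 to 7.29 ± 0.72 CPM (−1.71 ± 0.14; adjusted p = 1.32e-05, edgeR). Also lower were Gab1 (−1.83), Gigyf1 (−1.49), Ptpn11 (−1.25), Pik3r1 (−0.98), Crk (−0.59), Sos1 (−0.39) and Grb2 (−0.28). The calls of Sos1 and Grb2 were lost with library totals alone. Irs2, an adaptor gene, rose from 45.7 ± 1.83 to 68.3 ± 12.1 CPM (0.58 ± 0.12; adjusted p = 0.00346, edgeR). Ptpn1, which encodes a phosphatase of the insulin receptor, rose from 43.1 ± 1.21 to 59.4 ± 5.57 CPM (0.46 ± 0.09; 0.00196). With TPM neither passed, at log2 fold changes of 0.18 for Irs2 and 0.084 for Ptpn1 (limma; adjusted p = 0.217 and 0.475).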

How the data were processed

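Per the file headers, the deposited table gives raw read counts and FPKM values per gene for each library. FPKM was computed by the authors as fragments scaled to gene length and library size, and genes with no count are listed at 1e-04. Per the labels' protocols, polyadenylated RNA was sequenced as paired ends. Tools named in the submitters' processing notes are HISAT2 2.0.4, StringTie 1.3.4d, cutadapt 1.9, DESeq2 and edgeR, with no role or order. Genome build, counting program and use of strand are not given in sources used here.

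Groups were taken from sample titles. After filterByExpr with a minimum count of 10 and minimum total of 15, the whole table was TMM-scaled and tested with glmQLFit and glmQLFTest of edgeR 4.0.16 in R 4.3.3, with Benjamini-Hochberg adjustment over 14342 genes. CPM are TMM-scaled, and SE is the log2 fold change divided by the root of F. limma 3.58.1 (FPKM or TPM) and DESeq2 1.42.0 served as alternatives, as did other scalings, no filter, a replicate block and leaving out each library. Libraries of a group differed by more than sampling noise in every pair (chi-square per degree of freedom from 10.4 to 23.5). The procedure was also run on simulated counts in which only a small part of the genes changed, evenly in both directions. In the data 71.3% of tested genes were called, so that run does not check the scaling under such wide change. Total counts were lower in shBmal1, so counting error is larger there, and spread between libraries adds to it.

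Members, gene lists and motifs were chosen with earlier results of these data known. Besides the members, up to 3 called genes with the smallest p in each direction were named per list; 1 listed gene is not reported here. Insr, Ctsd, Pappa2, Plag1, Igf2bp3 and the further adaptor and brake genes that fell were added after their values were seen. So were the listed genes without counts, the markers and the genes overlapping or near members.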

Additional observations from a re-analysis of the deposited data

How the results depend on the processing

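The total number of calls over all genes, the family and the other IGF axis genes stayed within 1.5 times under each of the 15 alternatives, and the Bmal1 change kept its call. Split by direction this did not hold, since with TPM 6 other IGF axis genes were higher in place of 11 and 27 lower in place of 18. Family calls numbered 6 to 8 when 1 library was left out, and all-gene calls 9274 to 10617. Of the alternative values of the 9 tested members, 120 kept direction and side, 6 changed sign (Igf2 and Igfbp7), 5 gained a call (Igfbp7) and 4 lost one (Igf1r). Igf2 was −0.10 with TPM, −0.070 with log2(FPKM + 0.1) and −0.23 with a replicate block, and −1.42 to 0.60 with 1 library left out. Igfbp7 turned to −0.22 and Ctsd to −0.16 with TPM. Scaling to library totals alone and TPM moved the median of all genes from −0.01 to 0.15 and −0.35. The cause of these changes was not tested. Of the pool shares, 9 moved in raw counts, which are not divided by gene length. In shNC they were 81.8% for Igfbp7 (84.9% in FPKM), 10.1% for Igfbp6 (10.8%), 4.93% for Igfbp4 (2.59%), 1.6% for Igfbp5 (0.311%), 1.48% for Igfbp2 (1.32%) and 0.0568% for Igfbp3 (0.0265%). In shBmal1 they were 0.662% for Igfbp5 (0.124%), 0.559% for Igfbp4 (0.284%) and 0.530% for Igfbp3 (0.243%). With 1 library left out, Igfbp3 ran from 3.13 to 3.54 and Igfbp4 from −3.20 to −2.83. Without a filter Igf1 had a log2 fold change of 0.41 ± 2.27 (SE; adjusted p = 0.881, edgeR).

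No clear pairing of libraries by replicate number was seen. Deviations of same-numbered libraries correlated over genes at −0.0732, 0.0113 and 0.0297, and no shNC library correlated best with its own number. From the other side, shBmal1 replicate 3 correlated best with shNC replicate 3. These small values cannot show whether libraries of the same number shared a culture or batch. With a replicate block 9415 genes were called, as were 7 members and 28 other IGF axis genes. Changes of Igf1 and Igf2 could not be resolved in these libraries.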
